A study of Solanum lycopersicum with 2 samples.

Results

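Transcription factors that carry a family symbol were examined in young primary leaves of tomato (Solanum lycopersicum) seedlings, in 1 library of plants overexpressing SlRBZ (labelled OV-5-1) and 1 library of wild-type plants (labelled CK-1). The members are the loci of the deposited FPKM table whose gene reference holds a symbol that starts with a family name (ERF, JERF, DREB, CBF, PTI and a digit, WRKY, MYB, NAC, GRAS, BHLH, BZIP, TKN, LET and a digit, or HB and a digit), with MYB12 left out. This rule found 26 loci under 24 distinct symbols, among 17803 gene loci of which 954 carry a symbol at all. The series title links SlRBZ overexpression to etiolated, dwarf plants. Neither the promoter of the transgene, the cultivar, nor the number of plants behind each library is given in the sources used here, and neither is whether OV-5-1 stands for a single transgenic line. The design text mentions duplicates, but with 1 library per genotype analysed here no difference has a replicate check and no test between genotypes was possible. Expression of the SlRBZ transgene was not checked, and the genotypes are taken from the labels.

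Transcription factors bind short DNA elements and raise or lower the transcription of the genes beside them. Proteins of the AP2/ERF family bind the GCC box of defence and ethylene-responsive genes (ERF type) or the dehydration-responsive element of cold and drought genes (DREB type). GRAS proteins include the DELLA repressors of gibberellin signalling, and WRKY proteins act largely in defence and stress. KNOX homeodomain proteins of class I keep shoot meristem cells undifferentiated and, in tomato, shape the compound leaf, while those of class II are expressed widely in differentiated organs.

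By family, the 26 loci comprised 13 AP2/ERF genes, 8 GRAS genes, 2 KNOX homeobox genes and 1 WRKY gene, and no symbol starting with CBF, NAC, BHLH or BZIP occurred. The remaining 2 loci do not encode transcription factors, although their symbols fit the rule. HB2 appears in the RefSeq gene table as GLB2 with the synonym Hb2, a non-symbiotic haemoglobin gene, and PTI1 encodes a protein kinase that interacts with the Pto resistance kinase. The PTI1 locus also joins a neighbouring gene, so its FPKM cannot be assigned to PTI1 alone. By symbol or synonym and chromosome, 21 of the 26 loci matched the RefSeq table (assembly SLM_r2.1), and the 5 without a match were WRKY3, GRAS7, GRAS9, GRAS16 and the ERF1 locus on chromosome 5. Coordinates are those of the deposited table, whose genome build is not given in the sources used here.

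FPKM, fragments scaled to locus length and library total, are the authors' values. The step that a single fragment makes in gene-free loci with few fragments put the overexpressor library's scaling total at 14.2 M fragments (M, mega). That of the wild-type library was put at 7.47 M, so wild-type values carry the larger counting error. Each difference is that of log2(FPKM + 1), overexpressor minus wild type, a scale that understates the change of low genes. A locus is called higher or lower where its difference reached 2-fold. The 5 most abundant gene loci took 34.1% of gene-locus FPKM in the overexpressor and 47.3% in wild type. The defining markers of leaf were abundant, with all 10 loci of 6 Rubisco small subunit, light-harvesting and photosystem II symbols at 305 to 18085 FPKM in the overexpressor and 4925 to 121997 FPKM in wild type, and all 10 lower in the overexpressor. Of 6 ripe fruit symbols, E4 and PSY1 occurred as such, between them at 21.4 to 114 FPKM in the overexpressor and 38.6 to 317 FPKM in wild type. The ACO3 locus, with the RefSeq synonym E8/Sl27DOX, may be a further ripe fruit gene but was not counted with them. It went the other way and was called higher, at 12.6 FPKM in the overexpressor and 2.996 FPKM in wild type. The 1 root symbol of 4 that occurred, RSI-1, read 9.13 FPKM in the overexpressor and 10.1 FPKM in wild type. Of 6 flower and pollen marker symbols none occurred as such. TDR6, which has the RefSeq synonym TM6 from that list, read 19.8 FPKM in the overexpressor and 15.8 FPKM in wild type. Of 7 meristem and leaf primordium symbols only TKN2 occurred, and of 5 cell division symbols all did, with summed levels of 122 FPKM in the overexpressor and 58.3 FPKM in wild type. The part of these shifts in the members' values was not tested. In whole leaves a lower level can mean fewer cells of a type or less RNA per cell, and these cannot be told apart.

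All 26 members had a mean of at least 1 FPKM, and none was at 0 in either library. In the overexpressor 3 members were at least 2-fold higher (11.5% of members, against 11.6% of the 17631 gene loci that reached a mean of 1 FPKM) and 3 were at least 2-fold lower (11.5%, against 15.0% of gene loci). Both shares lie near the background, so the members as a list did not stand apart by their number of calls. The higher members were ERF1 on chromosome 6, GRAS16 and ERF2, and the lower ones were ERF4, GRAS7 and HB2. Without the haemoglobin and kinase loci, 3 of 24 were higher and 2 were lower. Over the members' own range of mean FPKM (1.64 to 159), 11.3% of 15670 gene loci were higher and 12.7% were lower. The median difference of the members was 0.20, against −0.05 over all gene loci and −0.02 over gene loci in that range.

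At a limit of 1.5-fold, 9 members were higher (34.6%, against 21.0% of gene loci) and 6 were lower (23.1%, against 25.3%). The higher 9 were 6 AP2/ERF genes and 3 GRAS genes, and the lower 6 included both KNOX genes and WRKY3. At 3-fold, ERF1 on chromosome 6 was the single higher member (3.85% of members, against 5.69% of gene loci) and HB2 the single lower one (3.85%, against 6.69%). Of the called members, those nearest the 2-fold limit were ERF2 at 1.02 and GRAS7 at −1.17. Nearest to it without reaching it were GRAS2 at 0.77 and TKN2 at −0.77.

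**Figure D1:**
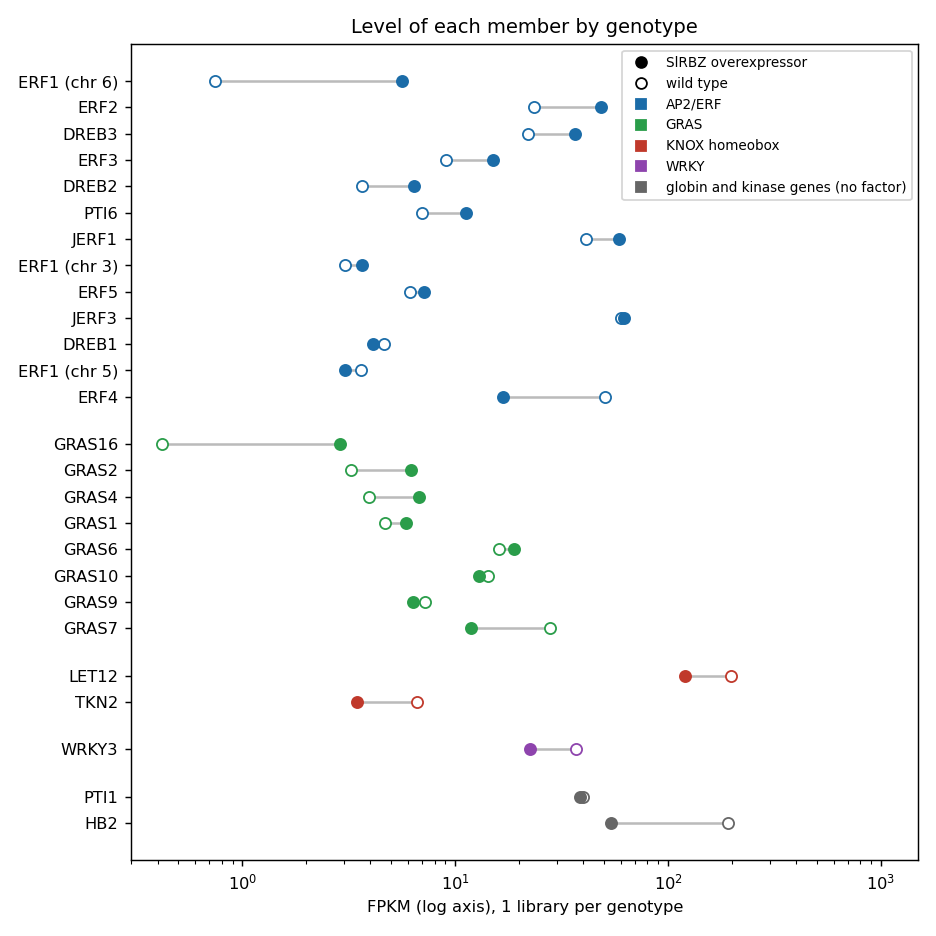
Each row is 1 member, grouped by family, with its FPKM in the SlRBZ overexpressor (filled) and wild type (open) on a log axis, 1 library each. ERF1 on chromosome 6 and GRAS16 show the widest gaps to the right of wild type, and HB2 and ERF4 the widest to the left.

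Within the AP2/ERF family 10 of 13 members lay above 0 (median 0.52), where 47.2% of all gene loci lay above 0. Above the median of all gene loci lay 10 of 13, both as deposited and with upper quartiles equalised. With sums over all loci equalised, 8 of 13 did when wild type was divided and 10 when the overexpressor was multiplied. At 2-fold, 2 members were higher (15.4%, against 11.6% of gene loci) and 1 was lower (7.69%, against 15.0%). The family's levels spanned 3.05 to 61.8 FPKM in the overexpressor, against 0.742 to 60.4 FPKM in wild type. Its highest member in both libraries was JERF3, a jasmonate- and ethylene-responsive factor gene.

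ERF1 is the symbol of 3 separate loci, which behaved differently. The locus on chromosome 6 (37639581 to 37641049, minus strand), named ERF-H1 in the RefSeq table, read 5.64 FPKM in the overexpressor and 0.742 FPKM in wild type. Its difference of 1.93 (3.81-fold) was the largest of the 26 and exceeded that of 96.2% of gene loci. The locus on chromosome 3 (48476779 to 48477592, plus strand), named ERF-A2 in the RefSeq table, read 3.67 FPKM in the overexpressor and 3.03 FPKM in wild type. The locus on chromosome 5 (60588226 to 60588981, minus strand) read 3.05 FPKM in the overexpressor and 3.60 FPKM in wild type. Thus 1 of the 3 was called higher, and the other loci differed by 0.21 and −0.18.

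The counting behind these low levels can be bounded. If the whole span of a locus were transcript, the ERF1 locus on chromosome 6 held 102 fragments in the overexpressor library and 7 in the wild-type one, and its FPKM ratio of 7.60 has a 95% Clopper-Pearson interval of 3.57 to 19.5. Spans can include introns, so such fragment numbers are upper limits and the intervals, apart from rounding, are the narrowest possible. They cover counting error only. Whole fragment numbers in both libraries came out for 1 of the 26 members, ERF1 on chromosome 6. The numbers of the other members were rounded before the intervals were taken. For 9 of the 26 members the interval of the ratio included 1, among them the ERF1 loci on chromosomes 3 and 5, ERF5, JERF3 and DREB1.

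ERF2, ERF4 and the JERF genes are the more abundant ERF-type members. ERF2 (chromosome 9, 62624942 to 62626247), named SlERF-E1 as a synonym and linked in tomato to ethylene responses, read 48.6 FPKM in the overexpressor and 23.4 FPKM in wild type. This is 2.03-fold higher, and the counting interval of its FPKM ratio ran from 1.76 to 2.43, on both sides of 2. ERF4 (chromosome 5, 61516603 to 61517346), synonym Sl-ERF.B3 and an ethylene response regulator, went the other way at 16.7 FPKM in the overexpressor and 50.6 FPKM in wild type. It was 2.91-fold lower (difference −1.54, FPKM ratio 0.331 with an interval of 0.263 to 0.414). Its rank among the members was 10 in the overexpressor and 4 in wild type.

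By RefSeq synonyms of the form SlERF-E, the E subgroup holds ERF2, JERF1 (SlERF-E2) and JERF3 (SlERF-E3), 3 of the most abundant AP2/ERF members in the overexpressor. JERF1 read 59.1 FPKM in the overexpressor and 41.0 FPKM in wild type, a difference of 0.52. JERF3, whose overexpression in tobacco is known to raise salt tolerance, read 61.8 FPKM in the overexpressor and 60.4 FPKM in wild type. The differences of these 3 thus ran from 0.03 to 1.02. Other RefSeq synonyms assign subgroups differently, naming JERF1 Sl-ERF-A-3 and JERF3 Sl-ERF-C-4. They name TSRF1, a gene outside the rule with a difference of −1.61, Sl-ERF-E-2. In the B subgroup ERF5 (SlERF-B2) read 7.11 FPKM in the overexpressor and 6.13 FPKM in wild type, beside the lower ERF4. ERF5 and the ERF1 locus on chromosome 3 lie 83988 bp apart with no other locus of the table between them, and neither was called.

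ERF3 (synonym SlERF-F5), of a group known as transcriptional repressors, read 15.1 FPKM in the overexpressor and 9.07 FPKM in wild type. PTI6, which interacts with the Pto kinase, binds the GCC box and is also named SlCRF1, a cytokinin response factor, read 11.3 FPKM in the overexpressor and 6.99 FPKM in wild type. Both were under 2-fold, with differences of 0.68 and 0.62.

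The 3 DREB genes, named for binding the dehydration-responsive element, did not pass 2-fold either. DREB3 read 36.4 FPKM in the overexpressor and 21.9 FPKM in wild type, and DREB2 read 6.38 FPKM in the overexpressor and 3.65 FPKM in wild type. DREB1 read 4.11 FPKM in the overexpressor and 4.62 FPKM in wild type. DREB3 and DREB2 differed by 0.71 and 0.67 and DREB1 by −0.14, which turned to 0.07 with equal upper quartiles.

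**Figure D2:**
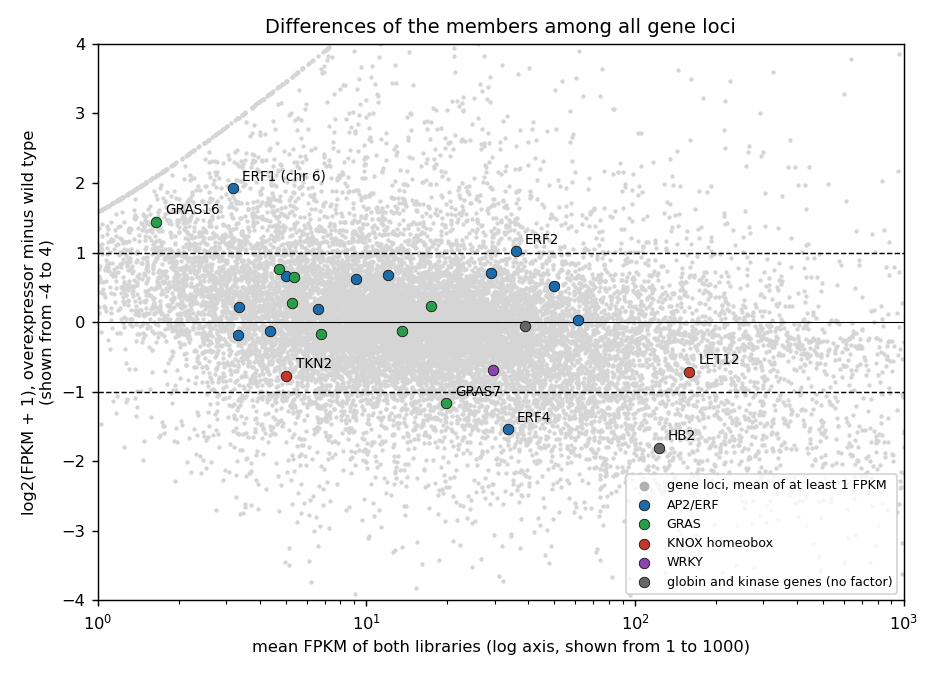
The difference of log2(FPKM + 1), overexpressor minus wild type, is plotted against the mean FPKM of both libraries for gene loci (grey) and the 26 members (coloured by family), with dashed lines at 2-fold. Most members lie between the lines, and the 6 outside them are named together with TKN2 and LET12.

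GRAS genes were mixed, with a median of 0.25. Of the 8, 1 was higher and 1 lower (12.5% each, against 11.6% and 15.0% of gene loci). Above the median of all gene loci lay 5 of 8, both as deposited and with upper quartiles equalised. With sums over all loci equalised, 4 of 8 did when wild type was divided and 5 when the overexpressor was multiplied. GRAS16 (chromosome 3, 64317825 to 64319453) was the lowest member in both libraries, at 2.87 FPKM in the overexpressor and 0.421 FPKM in wild type. Its difference was 1.44 (2.72-fold), resting on at most 58 fragments in the overexpressor library and 4 in the wild-type one, with an interval of the FPKM ratio from 2.81 to 28.8. GRAS7 (chromosome 7, 64321334 to 64324364) read 11.8 FPKM in the overexpressor and 27.8 FPKM in wild type, 2.25-fold lower. The gap separates it from the other 7 GRAS genes, whose differences ran from −0.17 to 1.44.

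The other GRAS genes stayed within 2-fold. GRAS2, with the synonym SCL in the RefSeq table, read 6.21 FPKM in the overexpressor and 3.23 FPKM in wild type, and GRAS4 read 6.77 FPKM in the overexpressor and 3.95 FPKM in wild type. GRAS6, known in tomato for a part in resistance to bacterial speck, was the most abundant GRAS member in the overexpressor at 18.9 FPKM, against 16.0 FPKM in wild type. GRAS1, GRAS9 and GRAS10 differed by 0.28, −0.17 and −0.13. The tomato DELLA gene GAI also belongs to the GRAS family, though its symbol falls outside the rule, and read 87.9 FPKM in the overexpressor and 152 FPKM in wild type.

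Both KNOX genes had differences below 0 that did not reach 2-fold, except with sums equalised over all loci where both lay above 0, and their differences as deposited were nearly equal although their levels were far apart. LET12 (chromosome 7, 1876090 to 1882613), named T12 in the RefSeq table and of class II, was the most abundant member in both libraries, at 121 FPKM in the overexpressor and 198 FPKM in wild type. TKN2 (chromosome 2, 39767063 to 39773953), also known as LeT6 and the class I gene that shapes compound leaves, read 3.47 FPKM in the overexpressor and 6.61 FPKM in wild type. Their differences of −0.71 and −0.77 lay at percentiles 21.6 and 20.1 of all gene loci, within the lower part of the distribution but not at its edge. The single WRKY gene, WRKY3 (chromosome 1, 78600553 to 78602865), read 22.4 FPKM in the overexpressor and 36.9 FPKM in wild type, a difference of −0.69.

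HB2 (chromosome 3, 41282493 to 41284402), the haemoglobin gene, showed the lowest difference of all 26 at −1.81 (3.50-fold), with 53.9 FPKM in the overexpressor and 191 FPKM in wild type. Its removal takes away the most negative value of the list and leaves ERF4 as the lowest transcription factor. PTI1, with its joined neighbour, read 38.4 FPKM in the overexpressor and 39.8 FPKM in wild type. Across the 26 loci the log2(FPKM + 1) levels of the 2 libraries correlated at Pearson's r = 0.89, a description across genes that are not independent replicates.

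Each of the 3 scalings tried moves every difference upwards, so a sign could change only among members below 0 as deposited. The 15 members above 0 therefore had to stay there. The number below 0 was 11 as deposited, 6 under each of the first 2 scalings and 0 under the last. Dividing wild type by the factor that equalises the upper quartiles of gene loci (0.25 on the log2 scale) moved the median of all gene loci to 0.18. It left 3 members higher (15.1% of gene loci) and 2 lower (10.8% of gene loci), GRAS7 dropping out at −0.92. With sums equalised over gene loci other than the 100 most abundant (0.67 on the log2 scale, all-gene median 0.54), 10 members were higher (38.5%, against 25.9% of gene loci) and 1 was lower (3.85%, against 6.24%). With sums equalised over the whole table (2.92 on the log2 scale, all-gene median 2.24), all 26 members were higher, as were 93.3% of gene loci, while 0.238% of gene loci were lower. Relative to the median of all gene loci under each scaling, the AP2/ERF median lay 0.57 above it as deposited, and 0.58, 0.61 and 0.36 above it under those 3 scalings. The KNOX median differed from it by −0.69, −0.69, −0.68 and −0.52, below it under all 4. The GRAS median lay 0.30, 0.29 and 0.28 above it as deposited and under the first 2 scalings, and differed from it by −0.05 at equal sums over the whole table. Multiplying the overexpressor values by the same factors, instead of dividing those of wild type before 1 is added, gave the same members called under each scaling. The all-gene shares were then 15.7% higher and 11% lower with equal upper quartiles, 28.1% and 6.52% without the 100 most abundant, and 95.0% and 0.352% at equal sums over the whole table. In that form the GRAS median at equal sums lay 0.29 above the all-gene median, so its sign there depends on which library is scaled.

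**Figure D3:**
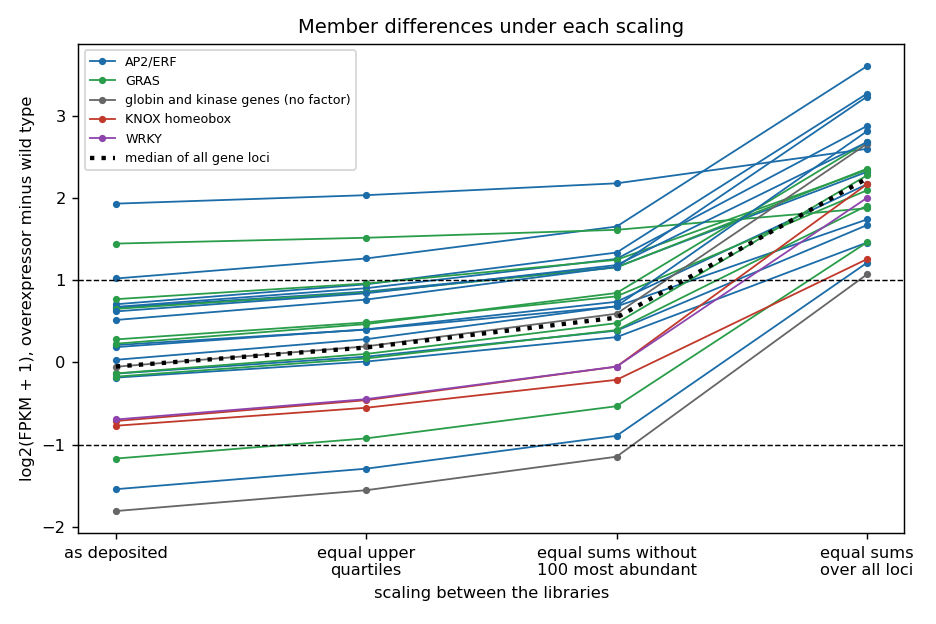
Each line is 1 member, coloured by family, showing its difference of log2(FPKM + 1), overexpressor minus wild type, with the values as deposited and under 3 scalings; the dotted line is the median of all gene loci and dashed lines mark 2-fold. ERF1 on chromosome 6, GRAS16 and ERF2 are above the upper line as deposited. They had to stay there under the 3 scalings, which all move differences upwards. ERF4, GRAS7 and HB2 are above 0 only at equal sums over all loci.

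Members of the same families also occur under symbols that the rule does not reach, and 22 such loci were collected by symbol after the table had been opened; their values are as deposited. Of these, 3 passed 2-fold upwards (13.6%, against 11.6% of gene loci) and 1 downwards (4.55%, against 15.0%), with a median of 0.27. Among 3 NAC genes 2 were higher. NAM, the goblet gene that sets organ and leaflet boundaries, read 3.65 FPKM in the overexpressor and 0.367 FPKM in wild type. SLNAC1 read 6.39 FPKM in the overexpressor and 1.45 FPKM in wild type. The third, SLNAM1, read 31.8 FPKM in the overexpressor and 27.9 FPKM in wild type. All 3 NAC genes were thus above 0, while the higher 2 had low wild-type levels.

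Of 5 MYB genes THM16 was higher, at 70.0 FPKM in the overexpressor and 16.2 FPKM in wild type (4.13-fold), and the other 4 differed by −0.45 to 0.39. Of 3 further AP2/ERF genes TSRF1, an ethylene response factor gene, was lower at 1.20 FPKM in the overexpressor and 5.72 FPKM in wild type. These values of TSRF1 rest on at most 9 fragments in the overexpressor library and 22 in the wild-type one. DDTFR10/A, which lies 12878 bp from ERF4 on chromosome 5 with no other locus of the table in the gap, read 36.6 FPKM in the overexpressor and 21.99 FPKM in wild type. ERF4 and DDTFR10/A differed in sign, at −1.54 and 0.71. With these 3 genes the AP2/ERF family came to 16 loci with a median of 0.36. Of the 16, 2 were higher and 2 lower (12.5% each, against 11.6% and 15.0% of gene loci). None of 5 bZIP genes passed 2-fold. HY5, the light-signalling bZIP factor, read 69.5 FPKM in the overexpressor and 42.3 FPKM in wild type. None of the 6 further homeobox genes collected passed 2-fold, and VAHOX1, the most abundant at 441 FPKM in both libraries, differed by 0.00. BL2 and BL3, whose protein class was not checked, were not among these 6. BL3 was lower, at 10.3 FPKM in the overexpressor and 23.4 FPKM in wild type. BL2 differed by −0.97, short of 2-fold.

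**Figure D4:**
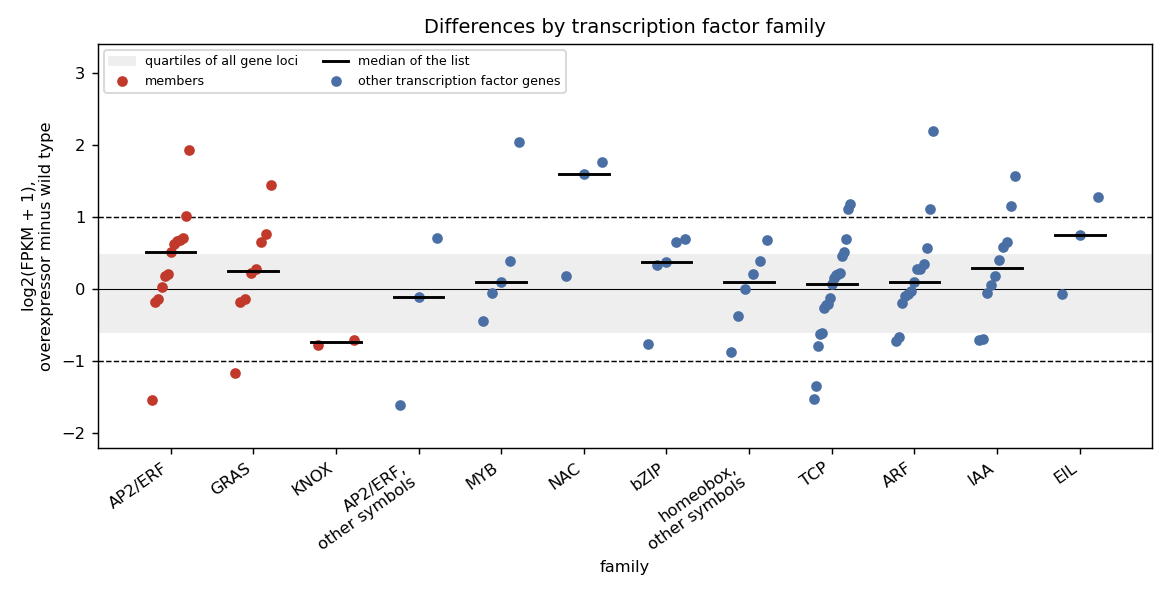
Points are single genes by family, showing the difference of log2(FPKM + 1), overexpressor minus wild type; red points are members, blue points other transcription factor genes, black bars list medians, the grey band the quartiles of all gene loci (−0.60 and 0.47) and dashed lines 2-fold. The medians of the 13 AP2/ERF members, of NAC and of EIL lie above the grey band and that of the KNOX pair below it, while all 16 AP2/ERF genes together have a median of 0.36, inside it.

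Genes of classes that these factors are known to act on or with were read beside them, with no link between factor and target tested. Of 6 chitinase and pathogenesis-related loci, classes with GCC-box genes, 3 were higher and 1 lower (16.7%), where 11.6% of gene loci were higher and 15.0% lower. CHI3 had the widest gap, at 159 FPKM in the overexpressor and 8.29 FPKM in wild type, while PR1B1, which shares its locus with another gene, read 79.6 FPKM in the overexpressor and 63.0 FPKM in wild type. Of 16 loci of ethylene synthesis, receptors and signal transducers 5 were higher (31.2%, against 11.6% of gene loci) and 1 lower (6.25%, against 15.0%). All 4 loci with an ACC oxidase (ACO) symbol were among the higher ones, led by ACO4 at 40.1 FPKM in the overexpressor and 3.54 FPKM in wild type. The ACO3 locus among them also has the RefSeq synonym E8/Sl27DOX, so its class is uncertain. The 5 receptor loci on the list (ETR1, ETR2, ETR4, ETR5 and ETR6) all stayed within 2-fold. The lower locus, which joins 2 ACC synthase symbols under ACS6, read 2.46 FPKM in the overexpressor and 7.19 FPKM in wild type.

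Both drought-linked genes with a symbol on the list were higher, where 11.6% of gene loci were higher. LE25, a late embryogenesis abundant protein gene, read 88.6 FPKM in the overexpressor and 1.31 FPKM in wild type, and the dehydrin gene TAS14 read 23.5 FPKM in the overexpressor and 6.58 FPKM in wild type. The wild-type value of LE25 rests on at most 6 fragments. The 3 DREB genes did not pass 2-fold beside them. For the gibberellin genes that KNOX proteins are known to act on in other plants, GA20OX1 read 17.8 FPKM in the overexpressor and 119 FPKM in wild type, and GA2OX2 read 1.58 FPKM in the overexpressor and 4.86 FPKM in wild type. Both were lower, 2 of the 3 loci on this list with a mean of at least 1 FPKM (66.7%, against 15.0% of gene loci). The other 2 loci on the list went the other way. LE3OH-2 read 15.8 FPKM in the overexpressor and 8.64 FPKM in wild type. LE3OH-1 read 1.75 FPKM in the overexpressor and 0 in wild type, and was not called because its mean was under 1 FPKM.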

How the data were processed

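Expression was measured by RNA-seq in 2 libraries, 1 per genotype. Per the labels' protocols, RNA was extracted with TRIzol from frozen young primary leaves. Per the submitters' processing notes, TopHat was used. Its version, the annotation, the counting tool and the build are not given there. The authors' deposited values are FPKM, named so per the file headers, 1 column per library. Value columns left without a sample numbered 0.

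The members and lists were chosen with earlier results of these data known. Both FPKM values are given for every member past 2-fold, for ERF1, TKN2 and LET12 and for each family's extremes; most others are given too. Prefixes of related genes were read as whole symbols, with only digits or a hyphen after them. Differences of log2(FPKM + 1) were taken over gene loci whose mean reached 1 FPKM and called at 2-fold. No p-value was computed. Scaling totals were fitted as the values that turned FPKM of gene-free loci of at least 300 bp, times length less 199 bp, into whole fragments: within 0.05 of a whole number came 80.1% of 2317 overexpressor values and 78.3% of 2364 wild-type ones. The fit of the totals and the 2-fold call were tested on simulated counts with counting error only. Spread between plants or libraries was not simulated, so that test does not bear on how reliable the calls are. Python 3.11.15, numpy 2.4.6, pandas 2.3.3 and scipy 1.17.1 were used. Alternatives covered the pseudocount, the filter, the scaling, loci joining genes and the fold limit.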

Additional observations from a re-analysis of the deposited data

How the results depend on the processing

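No paired analysis was possible because each genotype had 1 library, and for the same reason no library could be left out. The 6 members past 2-fold kept their calls at pseudocounts of 0.1 and 0.5, without the filter on low values and without the locus that joins 2 genes. With a filter of 5 FPKM, 1 of 20 members was higher (5%, against 8.54% of gene loci), since ERF1 on chromosome 6 and GRAS16 fall under it. At that filter 3 members were lower (15%, against 16.8% of gene loci). At limits of 1.5-fold and 3-fold, 9 and 1 members were higher and 6 and 1 were lower. At equal upper quartiles the members' median was 0.40. At equal sums without the 100 most abundant gene loci, 10 members were higher, 1 was lower and the median was 0.71. At equal sums over all loci, 26 were higher, 0 were lower and the median was 2.22, with ERF4 at 1.21, GRAS7 at 1.46 and HB2 at 1.07 above 0. The cause of these shifts is the scaling factor itself, which moves all gene loci. With the overexpressor multiplied instead, the counts under the 3 scalings were the same, the medians were 0.41, 0.77 and 2.94, and at equal sums over all loci ERF4 lay at 1.31, GRAS7 at 1.66 and HB2 at 1.096. That form, and leaving out HB2 and PTI1, were chosen after the data were seen; without those 2 loci the values were 3 higher, 2 lower and a median of 0.22. Depth limits the low members most: 13 of 26 had a mean under 10 FPKM.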

Other observations

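A list of 53 further loci with symbols of transcription factors and their partners overlaps with genes given above, namely GAI, HY5, VSF-1 and the 3 EIL genes, and includes BL2 and BL3, whose protein class was not checked. Of the 53, 7 were at least 2-fold higher (13.2%, against 11.6% of gene loci) and 4, BL3 among them, were lower (7.55%, against 15.0%), with a median of 0.15. Among 19 TCP genes, a family with regulators of leaf shape and branching, 2 were higher and 2 were lower (10.5% each, against 11.6% and 15.0% of gene loci). TCP3 read 16.0 FPKM in the overexpressor and 48.0 FPKM in wild type, and TCP17 read 4.33 FPKM in the overexpressor and 12.6 FPKM in wild type. TCP12 went the other way, at 22.3 FPKM in the overexpressor and 9.27 FPKM in wild type. So did TCP21, at 3.37 FPKM in the overexpressor and 1.02 FPKM in wild type, the latter resting on at most 6 fragments.

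HSFA3, a heat stress factor gene, read 14.5 FPKM in the overexpressor and 40.2 FPKM in wild type, while HSF8 read 17.8 FPKM in the overexpressor and 12.2 FPKM in wild type. Of 3 EIL genes, which act in ethylene signalling upstream of ERF genes, EIL3 was higher at 34.7 FPKM in the overexpressor and 13.7 FPKM in wild type. EIL1 read 24.3 FPKM in the overexpressor and 25.5 FPKM in wild type.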
